A study of Danio rerio with 12 samples.

Results

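Sex differences in the zebrafish body were examined among genes whose transcripts gave no signal in the ovary. A probe set was called ovary-silent when it read at or below 32 on all 3 ovary arrays and above 32 on at least 1 body array, where 32 is the floor set here on the signal scale of the array software. Of 15502 probe sets on the Affymetrix Zebrafish Genome array, 4041 were ovary-silent, 10900 had both body and ovary signal, and 520 were silent in the ovary and in both bodies. Exactly 1 gene symbol was listed for 1977 of the 4041 probe sets, which came to 1761 genes. Another 34 had several symbols and 2030 had none listed, and these were counted but not named. The probe sets were chosen by their ovary signals and by the floor on body signal, so their low ovary level is no result here. The ovary arrays entered no test other than 1 alternative fit of all 12 arrays. Elsewhere ovary signals are printed beside body and testis signals or used to band probe sets, as description only.

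Each of 3 male bodies without testes and 3 female bodies without ovaries was hybridized to its own array, beside 3 testis and 3 ovary samples. All fish were full siblings of the wild-type AB strain, 4 to 12 months old, whose sexes had been kept apart for 5 days after spawning. A body sample is the whole fish apart from its excised gonads, so brain, eye, skin, muscle, liver, gut and blood share 1 RNA extract, and fewer cells of a type and less RNA per cell cannot be told apart. Differences are given as male minus female body on the log2 scale, with signals below 32 set to 32, from limma fitted to the 6 body arrays over the 14941 probe sets above 32 on at least 1 of them. The adjusted p-values cover all of these.

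In most vertebrates the adult sexes differ in tissues outside the gonad as well as in the gonad itself. Steroid hormones from the gonad act through nuclear receptors in liver, brain and skin, and in egg-laying fish the female liver responds to estrogen by making yolk precursors for the ovary. Many genes of nerve, muscle, eye, skin and gut are used little by oocytes.

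The ovary-silent transcripts were, with few exceptions, more abundant on the male body arrays. Their median signal was 99.5, 90.1 and 92.8 on the 3 male body arrays, against 33.8, 47.9 and 62.1 on the 3 female body arrays. They held 13.5% to 13.8% of all signal on male body arrays and 6.23% to 9.65% on female body arrays, and the 2 ranges did not overlap. Of the 4041 probe sets, 1312 were higher in the male body (32.5%) and 12 were higher in the female body (0.297%) at an adjusted p under 0.05 from limma. Over all 14941 probe sets tested, 18% were higher in the male body and 12.9% in the female body. The median difference of the ovary-silent probe sets was 0.75 on the log2 scale, a 1.68-fold higher level in the male body, with quartiles of 0.30 and 1.13, against a median of 0.27 over all probe sets tested and 0.07 over those with ovary signal. In direction, 3813 differences lay above 0 and 228 below, against 9643 and 5298 over all probe sets tested. The filter on body signal fixed the sign of 845 of the 3813 and 63 of the 228, which were above 32 in 1 sex only. Among the 1910 above 32 on all 6 body arrays, 1830 lay above 0 and 80 below. Groups did not overlap for 2063 probe sets with every male value above every female value and for 23 the other way. These are 51.1% and 0.569%, against 32.5% and 19.5% of all probe sets tested. The filter let in 378 of the 2063 and 8 of the 23 through the higher sex alone. Among the 1910 above 32 on all 6 body arrays, 1159 (60.7%) and 11 (0.576%) did not overlap in these directions.

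**Figure D1:**
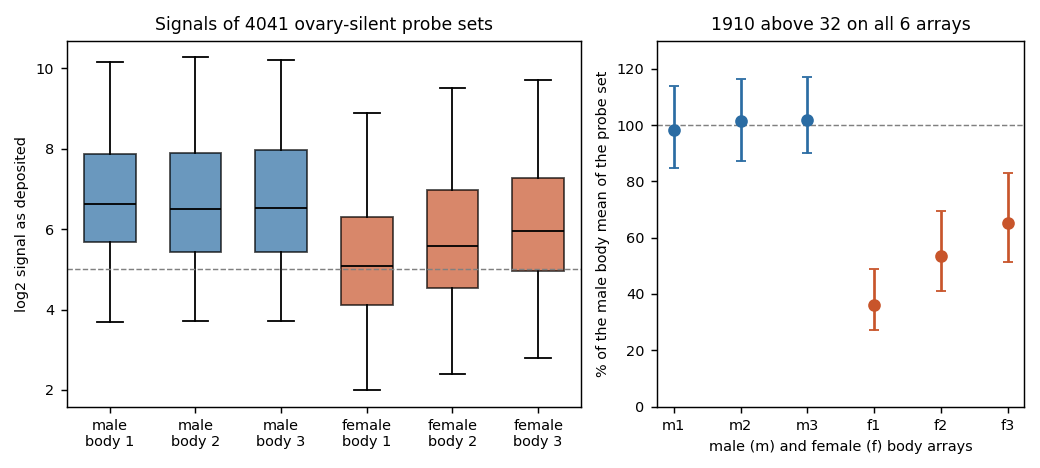
Left, boxes show the log2 signal as deposited of the 4041 ovary-silent probe sets on each body array (median and quartiles, whiskers from the 5th to the 95th percentile; the dashed line is the floor of 32). Right, points show the median, and bars the quartiles, of the signal as a percentage of the same probe set's male body mean (of log2 values), for the 1910 probe sets above 32 on all 6 arrays; the 3 female body arrays sit at 36%, 53.5% and 65.2%.

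This difference was shared by most of the set. Among the 1910 ovary-silent probe sets above 32 on all 6 body arrays, the median signal was 98.2%, 102% and 102% of the probe set's own male body mean on the male arrays, against 36%, 53.5% and 65.2% on female body arrays 1, 2 and 3. On those female arrays 1839, 1762 and 1673 of the 1910 probe sets lay below the male mean. The 3 female bodies thus lay apart from each other as well as from the males, with female body 1 the lowest. Array pairs correlated over the ovary-silent log2 signals at r = 0.91 to 0.93 within males, 0.90 to 0.94 within females and 0.85 to 0.92 between the sexes, as a description of signals that share their probes.

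Egg coat and oocyte markers moved with this shift. The summed signal of 46 genes of the egg coat and oocyte was 20519, 15893 and 16730 on male body arrays 1, 2 and 3, against 300939, 208607 and 156406 on female body arrays 1, 2 and 3, and 364182 to 404004 on the ovary arrays. Most of the male sums came from the RNA-binding protein gene ybx1, which was higher in the male body than in the ovary, and without it the sums were 2549, 2031 and 1979 on male body arrays, against 294332, 199848 and 146055 on female body arrays. Of these 46 genes 43 were higher in the female body, 14 lay at or below 32 on all male body arrays and 0 did so on all female body arrays. Female body 1 had the lowest ovary-silent signals and the highest egg coat and oocyte sum, and female body 3 had the highest ovary-silent signals of the females and their lowest such sum. For 60 genes of axoneme, meiosis and sperm the sums were 11982, 11280 and 4800 on male body arrays, against 12157, 7388 and 6279 on female body arrays. They were 193354 to 210351 on testis arrays and 18349 to 19909 on ovary arrays. The list thus holds genes with ovary signal, and ddx4 is on both lists. For example, tdrd7a read 1961 to 2199 on ovary arrays and 412.1 to 1362 in female bodies, against 62.9 to 90.4 in male bodies. The gene ift57 alone read 7500, 6688 and 37.1 in male bodies, and without it the sums were 4481, 4592 and 4763 on male body arrays, against 12008, 7315 and 6202 on female body arrays. Of the 52 of these genes tested, 4 were higher in the male body and 11 in the female body. Each array had been scaled by the array software to the same trimmed mean, so signals are relative to the rest of the RNA on that array. The part of the gonad transcripts and of this scaling in the shared shift was not tested.

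Because the shift was shared, each difference was also taken relative to it. The 6 body arrays were scaled so that the 1910 ovary-silent probe sets above 32 on all of them had the same median level, and the same limma fit was run on the scaled signals. This scaling was chosen after the shift had been seen. It puts the median of the ovary-silent set at 0.00 and that of all probe sets tested at -0.58. On scaled signals 92 ovary-silent probe sets were higher in the male body and 92 higher in the female body (2.28% each), where 0.863% and 26.1% of all probe sets tested were called in those directions. All 92 on the male side were among the 1312 called on the signals as deposited, and the 12 on the female side were among the other 92. The groups did not overlap on scaled signals for 402 probe sets with the male side higher (9.95%) and 337 with the female side higher (8.34%). Of all probe sets tested, 3.91% and 47.8% did so. The filter let in 90 of the 402 and 28 of the 337 through the higher sex alone. Among the 1910 above 32 on all 6 body arrays the counts were 217 and 213.

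**Figure D2:**
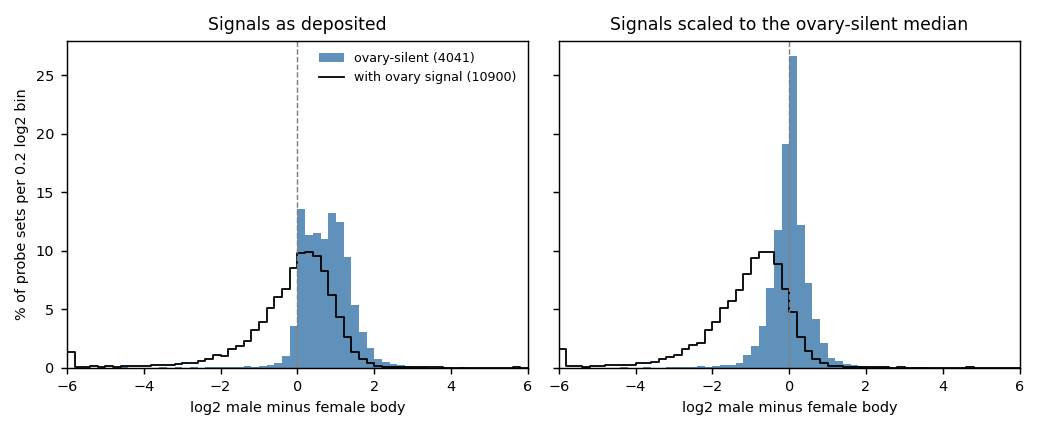
Percentage of probe sets per bin of the log2 male minus female body difference, for the 4041 ovary-silent probe sets (bars) and the 10900 with ovary signal (line), on the signals as deposited (left) and scaled to the ovary-silent median (right). Differences beyond the axis are counted in the end bins; the ovary-silent median is 0.75 on the left and 0.00 on the right.

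The filter on body signal bears on these counts. Of the ovary-silent probe sets, 845 rose above 32 on male body arrays only and 63 on female body arrays only, and a probe set let in by 1 sex alone cannot differ toward the other. The split itself is therefore no evidence. The 845 gave 121 of the 1312 calls on the male side, and the 63 gave 1 of the 12 on the female side. With every probe set above 32 on all 6 arrays, 802 of 1910 were higher in the male body and 7 in the female body, at a median difference of 1.01. On scaled signals the same 1910 gave 38 and 60. Of the 845, 204 were above 32 on all 3 male body arrays, and of the 63, 2 were above 32 on all 3 female body arrays. These too were let in by 1 sex alone, so their numbers are likewise no evidence.

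The ovary threshold had no sharp edge in these values. The muscle transcription factor gene mef2d, just inside at 32 on its highest ovary array, read 184.8, 130.7 and 210.5 in male bodies, against 45.9, 77.2 and 112.4 in female bodies. The LIM domain gene fhl3b, just outside at 32.1, read 489.8, 277.0 and 374.7 in male bodies, against 85.7, 109.1 and 130.1 in female bodies. Other genes next to the threshold were mixed. Inside it anxa13l, and outside it arl11 and cldn3c, were also higher in the male body. Inside it cell, f7l and myl10, and outside it ric8a and cstf1, did not pass (adjusted p = 0.10 to 0.84 from limma). By the highest ovary value, the share higher in the male body was 29.7% up to 8, 30.6% from 8 to 16, 35.7% from 16 to 24, 33.8% from 24 to 32, and then outside the set 31.8% from 32 to 64 and 24.4% from 64 to 128. The median difference was between 0.60 and 0.82 in all of these bands.

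Testis signal was not part of the rule. Of the 4041 probe sets, 1106 were silent on all 3 testis arrays as well. Of these, 183 were higher in the male body (16.5%) and 3 in the female body (0.271%), at a median difference of 0.31. The 1983 above 32 on all 3 testis arrays held 846 (42.7%) and 7 (0.353%), at a median of 0.96. Over all 14941 probe sets tested the shares were 18% and 12.9%. On scaled signals the 2 medians were 0.00 and 0.03. The floor shrinks differences of dim probe sets, and its part here was not tested. Of the 1312 higher in the male body, 158 had a testis mean above their male body mean, and the median of the means was 162 in male body, 62.5 in female body and 63.1 in testis.

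The keratin gene krt95 had the largest male excess of the named genes. It read 713.0, 766.2 and 799.5 in male bodies, against 55.9, 23.1 and 22.0 in female bodies. The fold was 19.7 (log2 4.30, SE 0.31, adjusted p = 8.2e-05 from limma), and it stayed 11.0 on scaled signals (log2 3.46, SE 0.54, adjusted p = 0.021). It was the gene with the smallest adjusted p among the 15 named on the male side, and its testis signals were 35.2, 59.6 and 11.6.

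Cytochrome P450 genes of family 2, whose enzymes oxidize lipids and foreign compounds in the liver, lay far out on both sides. The gene cyp2k22 read 2990, 1052 and 2415 in male bodies, against 7.3, 272.2 and 238.4 in female bodies (log2 3.95, SE 0.81, adjusted p = 0.013). The related cyp2k6 ran the other way, with 67.6, 25.2 and 34.2 in male bodies, against 443.8, 1097 and 1846 in female bodies (log2 -4.52, SE 0.55, adjusted p = 0.0017). Neither gene's groups overlapped, before or after scaling. Of 2 further cyp2k genes in the set, cyp2k19 had a difference of 1.1 (adjusted p = 0.086) and cyp2k18 of 0.78 (adjusted p = 0.49). Without female body 1 the difference of cyp2k22 was 2.95 (adjusted p = 0.0097), and without male body 1 or 3 it did not pass (adjusted p = 0.052 and 0.051). On scaled signals cyp2k22 no longer passed the test (log2 3.27, adjusted p = 0.060) and cyp2k6 did (log2 -5.21, adjusted p = 0.0021).

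Aromatic amino acid decarboxylase, encoded by ddc, makes dopamine and serotonin from their amino acid precursors. Its signal was 293.8, 394.8 and 933.7 in male bodies, against 26.4, 59.4 and 51.1 in female bodies, a 10.4-fold difference (log2 3.37, SE 0.48, adjusted p = 0.0034). Every male value was above every female value by several fold. The uncharacterized gene si:ch211-69b7.6 showed a like pattern with 208.7, 238.0 and 568.5 in male bodies, against 15.3, 23.0 and 53.9 in female bodies (log2 3.00, SE 0.44). Both passed the test on scaled signals as well, at adjusted p = 0.027 and 0.026.

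Heart muscle genes were high in all 3 males. The cardiac myosin light chain gene myl7 read 7082, 5935 and 8193 in male bodies, against 272.9, 2454 and 1372 in female bodies (log2 2.85, SE 0.70, adjusted p = 0.023). Cardiac myosin light chain 1, cmlc1, read 2809, 2231 and 3263 in male bodies, against 160.3, 900.9 and 464.5 in female bodies (log2 2.75, SE 0.56, adjusted p = 0.013). Female body 1 was the lowest array for both, and without it the differences were 1.93 and 2.08. Without female body 2 that of myl7 was 3.52, and without male body 1, 2 or 3 myl7 did not pass (adjusted p = 0.068, 0.056 and 0.074). Cardiac troponin C, tnnc1a (log2 2.43), the cardiac myosin-binding protein mybpc3 (2.05), the oxygen-binding protein of muscle, mb (2.33), the sarcomere gene actn2b (2.46) and the muscle transcription factor mef2ca (2.57) were also higher in the male body. Of these, mef2ca lost its call without male body 1 or 3 or female body 1 or 2 (adjusted p = 0.051 to 0.061), tnnc1a without male body 3 (adjusted p = 0.051), and mb without male body 1 or 3 or female body 1 or 2 (adjusted p = 0.056 to 0.092), with a difference of 1.68 without female body 1. On scaled signals the values of myl7, cmlc1, tnnc1a, mybpc3, mb, actn2b and mef2ca were 1.84, 1.74, 1.65, 1.05, 1.32, 1.73 and 1.9, and none of these 7 passed the test, with adjusted p between 0.051 and 0.12.

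The calcium pump gene atp2a1, which refills the calcium store of fast muscle, read 11487, 8482 and 11070 in male bodies, against 1244, 2289 and 3023 in female bodies (5.00-fold, log2 2.32, SE 0.33, adjusted p = 0.0037). It passed on scaled signals too (log2 1.32, adjusted p = 0.018). The adult globin gene hbba2 was more uneven, with 8907, 2292 and 11294 in male bodies, against 391.7, 1576 and 1844 in female bodies (log2 2.55, SE 0.74, adjusted p = 0.036), and its groups overlapped after scaling. Its difference was 3.26 without male body 2 and 1.85 without female body 1, and it did not pass without male body 1 or 3 or female body 1 or 2 (adjusted p = 0.060 to 0.11).

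Insulin and somatostatin are made by the endocrine cells of the pancreas. The insulin gene ins read 2581, 1555 and 2915 in male bodies, against 500.5, 795.5 and 211.4 in female bodies (5.18-fold, log2 2.37, SE 0.48, adjusted p = 0.012). The somatostatin gene sst1.1 read 603.1, 519.0 and 666.2 in male bodies, against 106.0, 222.8 and 187.4 in female bodies (log2 1.85, SE 0.32, adjusted p = 0.0072). Relative to the shared shift ins had a value of 1.37 (adjusted p = 0.17) and sst1.1 of 0.85 (adjusted p = 0.050), just under the threshold.

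Among other genes that stood above the shared shift, slc13a1, a sodium and sulfate transporter of the kidney, read 460.0, 528.1 and 833.1 in male bodies, against 65.3, 97.9 and 232.0 in female bodies (log2 2.36, SE 0.48, adjusted p = 0.013). The sodium and potassium pump subunit atp1a1b read 792.0, 747.2 and 985.2 in male bodies, against 106.7, 198.6 and 342.3 in female bodies (log2 2.11, SE 0.40). The ubiquitin ligase gene lnx1 read 126.8, 274.0 and 208.9 in male bodies, against 29.7, 38.5 and 26.2 in female bodies (log2 2.51, SE 0.33). Without male body 3 slc13a1 did not pass as deposited (adjusted p = 0.053). All 3 passed on scaled signals, at differences of 1.36, 1.1 and 1.57.

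Myeloperoxidase, mpx, marks neutrophils and was measured by 4 ovary-silent probe sets that did not give the same difference. The brightest read 1211, 837.8 and 420.7 in male bodies, against 91.8, 301.5 and 299.5 in female bodies (log2 1.90, adjusted p = 0.037), and a second had a difference of 2.88 (adjusted p = 0.0031). The other two differed by 0.22 and 0.06 and did not pass. In all, 175 genes had 2 or more ovary-silent probe sets. Every probe set was higher in the male body for 29 of them, some for 61 and none for 85, and 0 had probe sets called in opposite directions.

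**Figure D3:**
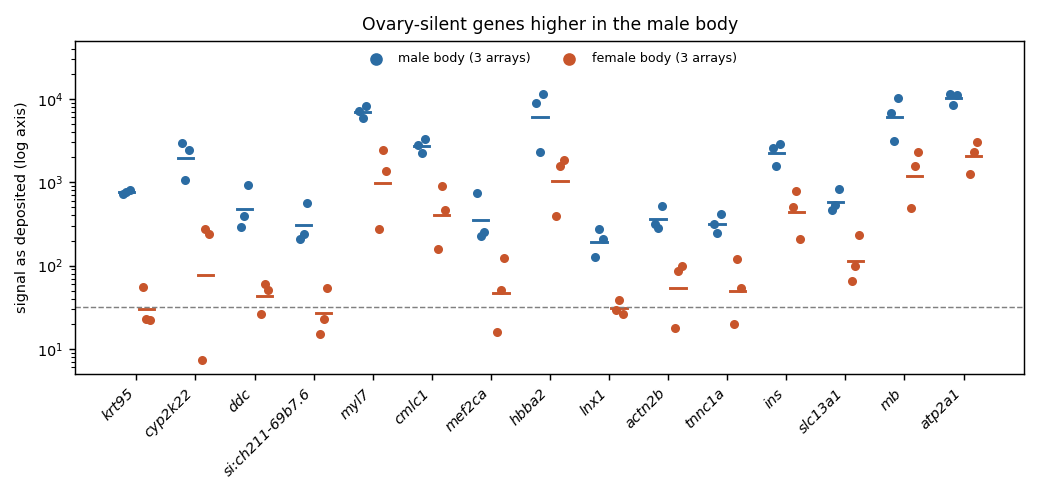
Signals as deposited, on a log axis, of the 15 ovary-silent genes with the largest male excess among those with an adjusted p under 0.05 from limma and no overlap, in the 3 male and 3 female body arrays; bars are means of the log2 values and the dashed line is the floor of 32. All male points lie above all female points of the same gene; on scaled signals hbba2 and mb overlap.

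The 12 probe sets higher in the female body belonged to 10 named genes and 1 probe set without a symbol. They included genes of liver and plasma, the exocrine pancreas and the estrogen receptor. The estrogen receptor gene esr1, which in egg-laying vertebrates is raised in the liver by estrogen itself, was measured by 2 probe sets. The brighter read 46.8, 78.8 and 72.6 in male bodies, against 109.5, 304.1 and 538.0 in female bodies (4.06-fold higher in female, log2 -2.02, SE 0.57, adjusted p = 0.033). The other read 7, 27 and 54 in male bodies, against 79.9, 229.5 and 292.6 in female bodies (log2 -2.20, adjusted p = 0.018). For the brighter probe set the difference was -2.65 without female body 1, and it did not pass without male body 1, 2 or 3 or female body 2 (adjusted p = 0.068 to 0.10). On scaled signals the values were -3.03 and -2.88. Testis signals of the brighter probe set were 91.4, 109.5 and 137.5. Of 13 genes on the array from the list of vitellogenesis and estrogen response, 4 were ovary-silent, and no vitellogenin gene was among the 4. The ovary-silent genes of this list other than esr1 were not higher in the female body by this test. The second estrogen receptor esr2a was higher in the male body (log2 0.92, adjusted p = 0.016) and lay at -0.05 relative to the shared shift, and the brain aromatase gene cyp19a1b had a difference of 0.14 (adjusted p = 0.76). The protease gene ctsl.1 had 0.38 (adjusted p = 0.82), with female body 1 far below the other two females.

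Coagulation factor XIII subunit A, f13a1a.1, which cross-links fibrin, read 25.1, 19 and 20.9 in male bodies, against 115.5, 219.7 and 847.3 in female bodies. All male values were under the floor, so the gene passed the body filter through female arrays alone and could not have differed toward the males. The floored male values also have no spread. With these limits, the level was at least 8.69-fold higher in the female body (adjusted p = 0.014 from limma). This bound leaned on female body 3 and was 4.98-fold without it, 13.5-fold without female body 1, and without male body 3 the adjusted p was 0.050, just over the threshold. The alpha-2-macroglobulin family gene a2m2c read 78.1, 25.6 and 55.0 in male bodies, against 251.7, 161.1 and 82.2 in female bodies (log2 -1.53, SE 0.49, adjusted p = 0.047). It came closest to overlap among these genes and passed in 1 of the 6 fits that left out an array, the one without female body 3 (adjusted p = 0.062 to 0.14 in the others). The membrane protein gene tmem176l.4 was 2.61-fold higher in the female body (log2 -1.38, SE 0.28, adjusted p = 0.013), and the uncharacterized gene si:dkey-14d8.6 had a value of -1.2 that likewise passed only without female body 3 among these fits (adjusted p = 0.062 to 0.13 in the others). A further uncharacterized gene read 52.6, 43.3 and 237.8 in male bodies, against 351.7, 279.1 and 412.9 in female bodies (log2 -2.08, adjusted p = 0.039), so male body 3 lay close to the females. Of the fits that left out an array it passed in 1, without male body 3, at a difference of -2.85 (adjusted p = 0.067 to 0.12 in the others).

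The water channel gene aqp12, whose mammalian counterpart is found in acinar cells of the pancreas, read 970.5, 480.5 and 386.1 in male bodies, against 1339, 1676 and 2513 in female bodies (3.15-fold higher in female, log2 -1.66, SE 0.38, adjusted p = 0.019). Elastase and carboxypeptidases are digestive enzymes of the same cells. The elastase gene cela1.5 read 706.9, 617.3 and 649.2 in male bodies, against 1039, 1495 and 1413 in female bodies (log2 -0.98, SE 0.20, adjusted p = 0.013). The carboxypeptidase gene cpa4 read 341.0, 315.9 and 366.1 in male bodies, against 554.9, 578.7 and 692.5 in female bodies (log2 -0.83, SE 0.20, adjusted p = 0.021). Replicates of both enzymes were tight within each sex. With 1 array left out, aqp12 did not pass without male body 2 or 3 (adjusted p = 0.059 and 0.063), cela1.5 without male body 3 or female body 2 (0.051 and 0.054), and cpa4 without male body 1, 2 or 3 or female body 2 (0.060 to 0.066). A second cpa4 probe set gave -0.73 and did not pass as deposited (adjusted p = 0.086).

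**Figure D4:**
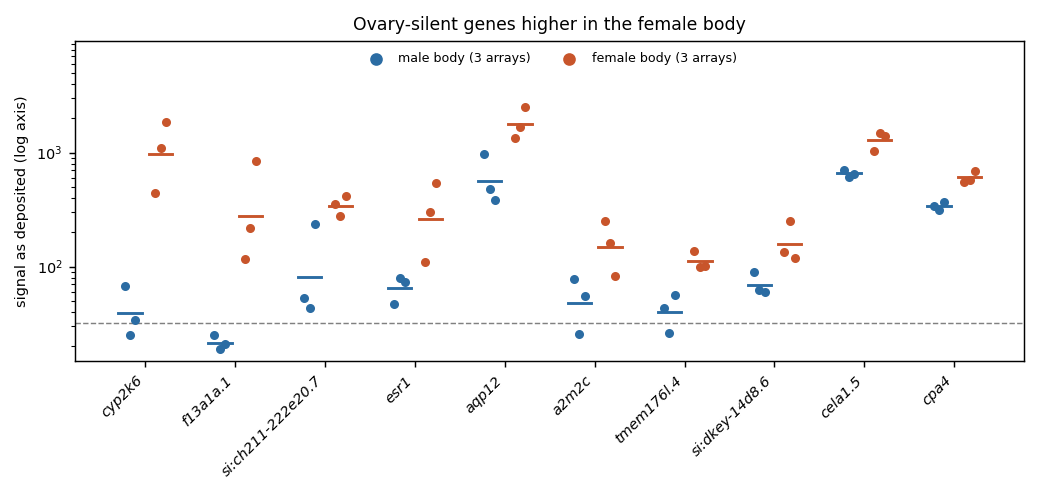
Signals as deposited, on a log axis, of the 10 named ovary-silent genes higher in the female body, in the 3 male and 3 female body arrays; bars are means of the log2 values and the dashed line is the floor of 32. All female points lie above all male points of the same gene, and the 3 male values of f13a1a.1 lie under the floor.

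Several other genes of digestion lay below the shared shift. The lipase gene cel.1 read 2907, 2551 and 2605 in male bodies, against 2290, 2371 and 2590 in female bodies (log2 0.15 as deposited, -0.85 scaled, adjusted p = 0.040 on scaled signals). The carboxypeptidase gene cpb1 read 2266, 2262 and 2451 in male bodies, against 2817, 2620 and 3452 in female bodies (-0.34 and -1.35, adjusted p = 0.021 on scaled signals). The chitinase gene chia.1 had values of 0.38 as deposited and -0.63 scaled (adjusted p = 0.029 on scaled signals), whereas its relative chia.3 was higher in the male body as deposited (1.97) and did not pass on scaled signals (0.96). Of 25 ovary-silent genes on the list of digestive tract and pancreas, 3 were higher in the male body and 2 in the female body, and on scaled signals 0 and 7. The 7 are 28% of the list, where 2.73% of the 1761 ovary-silent genes and 26.1% of all probe sets tested were called in that direction. They were chia.1, cpb1, cel.1, aqp12, cpa1, cpa4 and the intestinal transcription factor gene cdx1a. The list's median was 0.47 as deposited and -0.53 scaled, and 0.32 below the median of all ovary-silent genes on the deposited scale. The list was mixed, with chia.3, the peptide transporter gene slc15a1b (1.26) and rdh1 (0.76) higher in the male body.

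Liver genes as a list also lay below the median of the set. Of 66 ovary-silent genes of liver metabolism and plasma proteins, 10 were higher in the male body and 1, cyp2k6, in the female body. After scaling the counts were 0 and 2, the second being the coagulation factor gene f7i (log2 -1.11). The list's median was 0.59, against 0.80 over all 1761 ovary-silent genes, and -0.35 scaled. The abundant plasma proteins varied between samples of 1 sex. Plasminogen, plg, read 7545, 8360 and 2911 in male bodies, against 8882, 6077 and 3437 in female bodies (adjusted p = 0.99). Complement c9 read 4603, 6793 and 1848 in male bodies, against 5882, 5103 and 1939 in female bodies. In both sexes 1 of the 3 samples had much less of these than the others. The drug-metabolism genes cyp2p6 (1.54) and cyp2p9 (1.76), the sulfotransferase gene sult1st3 (1.51), the retinoic acid hydroxylase gene cyp26b1 (1.42) and agxta (1.62) were higher in the male body.

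Among the tissue lists with more than 1 gene, the nerve list had the largest share of genes called. Of 42 ovary-silent genes of neurons and synapses, 29 were higher in the male body (69.0%), against 581 of the 1761 ovary-silent genes (33.0%). The nerve list's median was 1.13. Counts of the other lists are to be read beside the 33.0% over all ovary-silent genes. Apart from the lists of liver, digestive tract and vitellogenesis, every list named here had 0 genes higher in the female body in limma, 0 at an unadjusted p under 0.05, and 0 by the methods' t-test on log2 values. Over all 1761 ovary-silent genes these counts were only 10 (0.568%), 12 and 2. At such shares lists of this size would hold few or none, so the 0 counts are no result about these tissues. The sodium pump subunit atp1b1b read 2228, 1959 and 2049 in male bodies, against 552.5, 812.8 and 735.9 in female bodies (3.00-fold, log2 1.59, SE 0.20, adjusted p = 0.0019). The vesicle fusion gene snap25b read 1424, 1809 and 1518 in male bodies, against 453.3, 903.4 and 1009 in female bodies (log2 1.08, SE 0.31). The synaptic vesicle genes sypa (1.21) and sypb (1.32), the inhibitory transmitter genes gad1b (1.2) and slc32a1 (1.13), and the glutamate receptor genes grin1a (1.55) and gria2b (1.19) lay in the same range. Relative to the shared shift, however, only ddc passed among the 42, and the median was 0.13.

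Ion channel genes of nerve and muscle had 7 of 12 higher in the male body (median 1.18), with scn3b, a sodium channel beta subunit, called on scaled signals too. It read 175.9, 282.1 and 192.4 in male bodies, against 36.3, 44.1 and 52.7 in female bodies (log2 2.27, SE 0.30, adjusted p = 0.0026). Of 8 genes of glia and myelin 4 were higher in the male body, and 0 remained on scaled signals. They were the peripheral myelin gene pmp22b, s100b, gpm6bb and the neural crest factor sox10. Of 31 genes of eye, lens and photoreceptor 10 were higher in the male body (32.3%), close to the 33.0% of all 1761 ovary-silent genes. The cone phosphodiesterase gene pde6ha read 6084, 5084 and 4751 in male bodies, against 1484, 2404 and 2805 in female bodies (log2 1.29, SE 0.26, adjusted p = 0.013). The lens crystallin gene crygs1 had 0.77 (adjusted p = 0.058). The eye list's median was 1.03 as deposited and 0.06 scaled, with 0 called on scaled signals in either direction.

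Of 46 genes of muscle and heart, 20 were higher in the male body, at a median of 1.14 and 0.20 scaled, and on scaled signals atp2a1 and the dystrophin gene dmd remained. The brightest fast muscle genes did not pass. Myosin light chain mylz3 read 36275, 25023 and 29819 in male bodies, against 13293, 19217 and 26283 in female bodies (log2 0.67, adjusted p = 0.14), and parvalbumin pvalb4 had 0.85 (adjusted p = 0.080). Their values on female body 3 reached those of male body 2 or nearly so. The giant sarcomere gene ttn.2 (1.75), the slow myosin gene smyhc1 (1.70) and desmin, desma (1.43), were higher in the male body.

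Blood and vessel genes had 10 of 17 higher in the male body (median 1.32, scaled 0.36). The median of 1.32 was the largest list median on the signals as deposited, but not under every scaling. The blood transcription factors tal1 (1.58), lmo2 (1.49) and gata1a (1.47) and the vessel receptor tek (1.6) were among them, and tal1 and tek passed on scaled signals. The tal1 gene read 116.4, 71.8 and 131.3 in male bodies, against 17.2, 27 and 40.3 in female bodies. Immune genes had 8 of 20 higher in the male body (median 1.15, scaled 0.23), among them the chemokine cxcl12a (1.21) and its receptor cxcr4b (1.44) and the lymphoid factor ikzf1 (1.54), and 0 were called on scaled signals.

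On scaled signals the lists of skin and skeleton had medians from -0.16 for keratins to 0.08 for bone and for extracellular matrix. The shares higher in the male body were 25% for keratins and epidermis and 24.2% for bone, cartilage and fin rays. They were 36.8% for extracellular matrix and 26.7% for pigment cells, against 33.0% of all 1761 ovary-silent genes. Of 24 keratin and epidermis genes 6 were higher in the male body. Among these krt95 stood alone, since the next, anxa1c, had 1.54, and krt17 lay below the shift (0.42 as deposited, -0.59 scaled, adjusted p = 0.036 on scaled signals). Of 33 genes of bone, cartilage and fin rays 8 were higher in the male body (median 1.06, scaled 0.08), among them the limb and fin factors prrx1a (1.24) and prrx1b (1.74) and the homeobox genes dlx3b, dlx5a and msx3. The collagen of hypertrophic cartilage, col10a1b, read 16649, 985.0 and 15185 in male bodies, against 1364, 1875 and 4835 in female bodies, so male body 2 lay below every female (log2 1.44, SE 1.05, adjusted p = 0.31). Extracellular matrix genes had 7 of 19 higher in the male body, and bgnb, which encodes the proteoglycan biglycan, passed on scaled signals (log2 1.80 as deposited, 0.81 scaled). Of 15 pigment cell genes 4 were higher in the male body, at a median of 0.56 that was below that of all ovary-silent genes under every scaling used.

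The list of Hox and patterning factors was the longest, with 115 ovary-silent genes of 165 on the array. Of these 50 were higher in the male body, at a median of 0.81, equal within 0.01 to that of all ovary-silent genes. The Hox gene hoxc8a read 465.0, 510.6 and 466.7 in male bodies, against 70.6, 177.2 and 169.4 in female bodies (3.74-fold, log2 1.90, SE 0.38, adjusted p = 0.012). Other called Hox genes ranged down to hoxb6b at 0.63. On scaled signals tal1, also a patterning factor, was called on the male side and tbx3a on the female side. The T-box gene tbx3a read 52.4, 80.8 and 106.0 in male bodies, against 59.3, 169.0 and 223.5 in female bodies, so the groups overlapped as deposited (log2 -0.77, adjusted p = 0.28). On scaled signals its value was -1.78.

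Signalling ligands and receptors had 19 of 54 higher in the male body (35.2%, against 33.0% of all 1761 ovary-silent genes), at a median of 0.77. Among them were the growth factor receptors fgfr2 (1.48) and fgfr3 (1.69), the bone morphogenetic protein gene bmp3 (1.85), the Wnt inhibitor sfrp1a (1.91) and wnt11 (1.67). On scaled signals 0 passed on the male side and 3, sema3ab, sfrp5 and wnt2, on the female side, all with signals near the floor. Pituitary and endocrine genes had 5 of 21 higher in the male body (23.8%, median 0.72), and the pituitary hormone precursor pomca had 1.13 (adjusted p = 0.090). Kidney, gill and ion transport genes had 6 of 19 (31.6%), and the kidney and gut cadherin cdh17 lay below the shared shift (0.04 as deposited, -0.97 scaled).

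**Figure D5:**
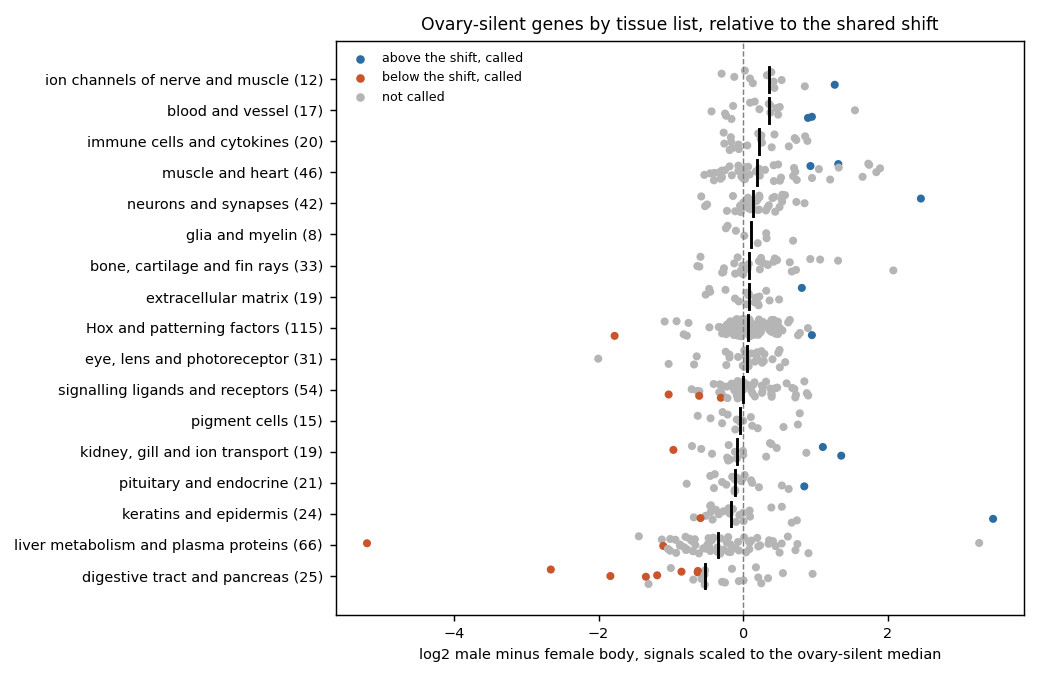
Each point is 1 ovary-silent gene, placed by its log2 male minus female body difference on signals scaled to the ovary-silent median, for 17 tissue lists with the number of genes in parentheses; black bars are list medians and colours mark an adjusted p under 0.05 from limma. Medians run from 0.36 for ion channels and for blood and vessel to -0.53 for digestive tract and pancreas. The list of vitellogenesis and estrogen response, with 4 genes and a lower median of -0.74, is not shown. Relative to all ovary-silent genes the sign of the keratin, kidney and Hox medians depended on the scaling. The signalling median was at 0.00 on scaled signals and below that of all ovary-silent genes otherwise.

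Set against the median of all ovary-silent genes on the signals as deposited, after quantile normalization and after scaling, most lists kept their side of it. Centring moves all genes alike and leaves these values as they are. Nerve, ion channel, glia, eye, muscle and heart, blood and vessel, immune, bone and extracellular matrix lists had medians above it under all 3. Muscle and heart lay 0.20 to 0.43 above and blood and vessel 0.36 to 0.52 above. The liver list lay 0.08 to 0.35 below, digestive tract and pancreas 0.15 to 0.53 below, and pituitary and pigment lists also lay below under all 3. The 4 genes of vitellogenesis and estrogen response lay 0.54 to 0.74 below. For keratins the value ran from -0.16 to 0.13, for kidney from -0.09 to 0.19 and for Hox and patterning from -0.07 to 0.06. On scaled signals, the lists with 0 genes called on the male side had 0 to 3 genes at an unadjusted p under 0.05 in that direction, and those with 0 on the female side had 0 to 1. The floor shrinks differences of dim genes, and 941 of the 1761 genes were above 32 on all 6 arrays, a share that differed between lists. Among such genes the deposited median was 1.00. There the lists above the median under all 3 ran from 1.05 for eye to 1.63 for ion channels. Those below it ran from 0.48 for digestive tract and pancreas to 0.92 for pigment, with 0.14 for vitellogenesis and estrogen response. These medians are descriptions of genes measured on the same 6 arrays.

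With 3 bodies a sex, the counts depended on single arrays. Counts over all probe sets tested are not given for the fits that left out an array, so the changes are not read as particular to the ovary-silent set. Leaving out 1 array at a time gave 638, 748 and 534 ovary-silent probe sets higher in the male body without male bodies 1, 2 and 3, and 737, 499 and 1703 without female bodies 1, 2 and 3. Of the 1312, 311 were called in all 6 of these fits. On the female side the counts were 6, 4 and 4 without male bodies 1, 2 and 3, and 14, 4 and 15 without female bodies 1, 2 and 3, and cyp2k6 and tmem176l.4 were called in all 6. After scaling the counts fell to 3 to 12 on the male side and 2 to 22 on the female side without any male body or without female body 2, and were 91 and 101 on the male side and 100 and 147 on the female side without female bodies 1 and 3, with 0 of the 92 and 2 of the 92 (cela1.5 and cyp2k6) called in all 6. The methods' t-test, a plain 2-sample test on linear signals, gave 14 and 0 ovary-silent probe sets higher in the male and in the female body at an adjusted p under 0.05, where it called 32 (0.214%) and 21 (0.141%) of all 14941 tested. At an unadjusted p under 0.05 it gave 1536 and 10 ovary-silent probe sets. The share over all probe sets at that threshold is not given, so these 2 counts are no result about the set.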

How the data were processed

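The data were 12 Affymetrix Zebrafish Genome arrays, 3 each of male body, female body, testis and ovary. The authors deposited linear signal intensities from GCOS 1.2, which averages 16 probe pairs into 1 value a probe set by Tukey's biweight and scales each array to the same mean after trimming 2% at each end, so each intensity is relative to the rest of the RNA on its array. Values of the study's other algorithms were not analysed here. Of 15617 rows, 115 controls were left out, which left 15502 probe sets. The array annotation, with symbols updated through RefSeq, gave 1 gene symbol for 10795 of them, several for 135 and none for 4572.

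Signals below 32 were set to 32 and taken to log2. The male and female body arrays were compared with limma 3.58.1 (lmFit and eBayes with an intensity trend, two-sided, in R 4.3.3) on the 14941 probe sets above 32 on at least 1 of the 6 body arrays, with Benjamini-Hochberg adjustment over all of them and a threshold of 0.05. The study's methods name 2-sample tests with a false discovery rate, and a plain 2-sample test stands in for them as the methods' t-test. Folds are on the log2 scale with the floor, which understates changes of low genes. Where all 3 values of a sex were under the floor, the fold against 32 is a lower bound. Where 2 of the 3 were, as in females for krt95, lnx1 and si:ch211-69b7.6, the spread of that sex rests on the remaining array. Groups and replicate numbers came from the labels, which pair no samples. The limma p-values therefore rest on the spread between these 3 samples a sex, with variances moderated across the 14941 probe sets. The number of arrays limits the precision.

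Named genes were those with exactly 1 symbol, an adjusted p under 0.05 and no overlap of the sexes, up to 15 on each side by the size of the difference, each by its brightest probe set, with members of gene lists that were called or bright. The ovary-silent rule and the gene lists were chosen with earlier results of these data known. Lists were described by counts and medians, without set tests. The steps of the main limma fit were tested on simulated data with independent noise and no shared shift. The ovary filter, the scaling and the lists were not simulated. Tables and plots were made with Python 3.11.15, NumPy 2.4.6, pandas 2.3.3 and matplotlib 3.10.9.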

Additional observations from a re-analysis of the deposited data

How the results depend on the processing

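The counts of ovary-silent probe sets depended on the processing, and the cause was not tested unless stated. For most settings counts over all probe sets tested are not given, so a changed count is not read as particular to the ovary-silent set. As deposited, 1312 were higher in the male body and 12 in the female body, at a median difference of 0.75. A floor of 64 gave 688 and 4 (median 0.34), the methods' t-test gave 14 and 0 on linear signals and 294 and 2 on log2 values, and array weights gave 2425 and 61. One fit of all 12 arrays gave 2025 on the male side, but it takes in the ovary arrays, which the choice of probe sets holds at the floor and so without spread, and it supports nothing here. Other settings changed the number of probe sets counted, so their counts go with that number, against 4041 in the main set. The ovary threshold at 16 gave 639 and 6 of 2111. A body mean of at least 200 gave 562 and 9 of 1213 (median 1.1). Testis-silent probe sets only gave 183 and 3 of 1106 (median 0.31). Centring each array on its ovary-silent median gave 58 and 536 and turned the median to -0.27. Scaling to the ovary-silent probe sets above 32 on all 6 body arrays gave 92 and 92 at a median of 0.00. Both settings equalize a median of ovary-silent signals between arrays by construction, which takes out the shared shift. This fixes neither the counts nor the value of -0.27. Counts stayed within 1.5 times the values above with a floor of 16, without a floor, under quantile normalization, after centring on all probe sets, without the intensity trend, and with the ovary threshold at 64. Without a filter 884 were higher in the male body and 8 in the female body. Leaving out 1 array at a time gave 499 to 1703 and 4 to 15, at medians of 0.58 to 0.88. On scaled signals the 92 and 92 became 48 and 43 with a floor of 64, 58 and 69 without a floor, 10 and 9 by the methods' t-test on log2 values, and 3 to 101 and 2 to 147 without 1 array.

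Apart from the fit of all 12 arrays, the 15 genes named on the male side passed the test in 221 of 285 results under alternatives, and the 10 on the female side in 131 of 190. They were chosen for large differences with no overlap, so their kept direction is no sign of stability. The methods' t-test on linear signals called 1 of the 15 and 0 of the 10, and scaled signals called 6 and 10. The gene krt95 passed in all 19 of these alternatives and cyp2k6 in 18 of 19.

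With the replicate number as a replicate block the counts were 1371 and 15, and 26 and 51 on scaled signals. Over all probe sets tested, same-numbered male and female bodies deviated together at r = 0.05, 0.09 and 0.16, and female body 1 correlated slightly better with male body 2 than with male body 1. Over the ovary-silent probe sets the values were 0.097, 0.10 and 0.22, the first just under 0.1, and every sample correlated best with its own number, a hint from the data and not from the design. The labels do not pair the samples, which here share only a number.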
